A study of Mus musculus with 9 samples.

Results

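Interferon response genes were compared between the kidneys of young and aged mice. The set holds 41 genes chosen by name as targets, sensors and transcription factors of type I and type II interferon, and 36 of them had a probe set of their own on the array, out of 19938 genes measured in all. Isg15, the ubiquitin-like modifier, Gbp2, Igtp and Irgm2, 3 GTPases of the interferon-gamma response, lay only on probe sets that also carry the name of another gene, and Ifi44 was not in the annotation used. These 5 genes were not analysed here. Of the 36 measured members, 33 had 1 probe set, Irf1 and Ifitm1 had 2 and Ifitm2 had 3, and the brightest stood for the gene.

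Whole kidneys of female wild type mice on a mixed FVB/C57BL6 background were taken at 14 weeks of age (4 arrays, replicates 1 to 4) and at 96 weeks (5 arrays, replicates 1 to 5), with no treatment named for either group. By the labels all 9 arrays are of the same sex and wild type, and age is the only labelled difference. How far the mixed background differed from mouse to mouse was not given. The mice had been perfused before the kidneys were frozen. The values are log2 expression, so a difference of 1 is a doubling, and they have no true zero. Markers of kidney tubules were bright on every array, with Umod of the thick ascending limb between 12.8 and 12.9 and Lrp2 of the proximal tubule between 12.5 and 12.9, and none of the 9 measured markers of kidney epithelium differed between the ages at an adjusted p under 0.05 from limma. In whole tissue, fewer cells of a type and less RNA per cell cannot be told apart.

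Type I interferons are secreted by cells that sense viral or misplaced nucleic acid, and interferon-gamma is made mainly by T cells and NK cells. Both act through cell surface receptors and Jak kinases. Type I interferon acts through a complex with Stat2 and Irf9 that binds the interferon-stimulated response element (ISRE), while interferon-gamma acts mainly at the gamma activated site (GAS). Among the products are proteins that detect foreign RNA, block translation or degrade RNA, stop viruses at membranes, and attack the vacuoles of intracellular microbes.

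RefSeq promoters (GRCm38.p6, from 250 bases before to 50 bases after a start) were listed for 28 of the 36 measured members. There was no entry for Mx1, Mx2, Oas2, Dhx58, Usp18, Iigp1, Parp14 and Zbp1. On either strand, the ISRE letters, GAAA, any 2 bases, GAAA, were found in the promoters of 15 of the 28 members (53.6%) and of 3.99% of 27025 genes. The GAS letters, TTC, any 3 bases, GAA, were found in 11 of 28 (39.3%) and in 9.55% of all genes. Both were present in 5 members (17.9%, against 0.614% of all genes), and in Bst2 and Ifitm3 the matches overlapped. The 7 sequences below are shown because these members carry the patterns described afterwards. Each holds the 180 bases before a start, read 5′ to 3′ on the strand of the gene, with matches in capitals. The first 3 belong to members of the antiviral type and hold ISRE letters alone: Ifit1 (chr19:34640709-34640888, plus strand), Ifit3 (chr19:34583349-34583528, plus strand) and Rsad2 (chr12:26456453-26456632, minus strand).
Ifit1: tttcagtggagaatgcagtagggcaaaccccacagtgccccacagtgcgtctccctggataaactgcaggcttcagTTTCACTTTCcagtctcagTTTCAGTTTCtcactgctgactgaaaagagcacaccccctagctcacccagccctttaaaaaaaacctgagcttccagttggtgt
Ifit3: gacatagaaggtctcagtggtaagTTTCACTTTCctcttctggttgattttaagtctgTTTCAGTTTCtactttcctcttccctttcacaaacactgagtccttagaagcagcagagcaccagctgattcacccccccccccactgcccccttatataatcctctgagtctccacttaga
Rsad2: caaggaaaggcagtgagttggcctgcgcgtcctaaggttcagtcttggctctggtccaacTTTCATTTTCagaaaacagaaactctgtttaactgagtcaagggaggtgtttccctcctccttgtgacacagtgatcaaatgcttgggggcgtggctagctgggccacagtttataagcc
Irf1 (chr11:53769834-53770013, plus strand) and Irf8 (chr8:120736178-120736357, plus strand) hold GAS letters alone.
Irf1: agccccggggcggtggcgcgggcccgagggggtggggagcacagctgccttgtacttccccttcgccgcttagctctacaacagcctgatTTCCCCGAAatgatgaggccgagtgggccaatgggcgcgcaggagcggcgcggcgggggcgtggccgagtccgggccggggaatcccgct
Irf8: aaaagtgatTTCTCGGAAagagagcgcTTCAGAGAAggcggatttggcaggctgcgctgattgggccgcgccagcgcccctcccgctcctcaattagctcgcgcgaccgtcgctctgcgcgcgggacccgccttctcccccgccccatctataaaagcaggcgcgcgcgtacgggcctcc
Irgm1 (chr11:48871421-48871600, minus strand) holds 2 ISRE matches that overlap each other, and Gbp7 (chr3:142530156-142530335, plus strand) holds 1 ISRE and 2 GAS matches.
Irgm1: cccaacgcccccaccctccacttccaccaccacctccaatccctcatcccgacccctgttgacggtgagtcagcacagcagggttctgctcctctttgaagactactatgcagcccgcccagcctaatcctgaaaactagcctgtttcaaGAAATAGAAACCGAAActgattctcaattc
Gbp7: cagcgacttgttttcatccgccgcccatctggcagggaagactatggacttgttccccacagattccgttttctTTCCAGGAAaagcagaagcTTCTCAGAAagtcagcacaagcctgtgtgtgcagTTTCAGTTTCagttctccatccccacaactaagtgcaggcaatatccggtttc
The ISRE match nearest to the start begins 85 bases before it in Ifit1 and 24 bases before it in Irgm1, and the GAS match of Irf1 begins 90 bases before it. A match is a run of letters and no measured binding site.

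None of the 36 measured members differed between 14 and 96 weeks after adjustment over all genes. By limma 0 of 36 members were higher and 0 were lower at 96 weeks with an adjusted p under 0.05, where 6.72% of all genes passed (4.31% higher, 2.4% lower). At an unadjusted p under 0.05 from limma 3 members passed (8.33%), against 28.5% of all genes. All 3 were higher, Ifitm2, Ddx58 and Rsad2, beside 13.3% of all genes that were higher and 15.3% that were lower. The methods' t-test called 0 members after adjustment (1.84% of all genes) and 2 before it (5.56%, against 25.0% of all genes), Ifitm2 and Adar. None reached 1.5-fold with an unadjusted p under 0.05, as 1.6% of all genes did. In no member did the values of the 2 ages separate completely, which happened in 13.3% of all genes. The median log2 fold change of the members was 0.09, beside -0.03 over all genes, with 21 members above 0 and 15 below it. With repeated quantile normalization the members' median was 0.02 (all genes -0.02), and with cyclic loess it was 0.05 (all genes -0.0044). Irf9, Dhx58 and Iigp1 changed sign under both other scalings of the arrays. The range ran from -0.27 for Oas2 to 0.39 for Irf8.

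**Figure D1:**
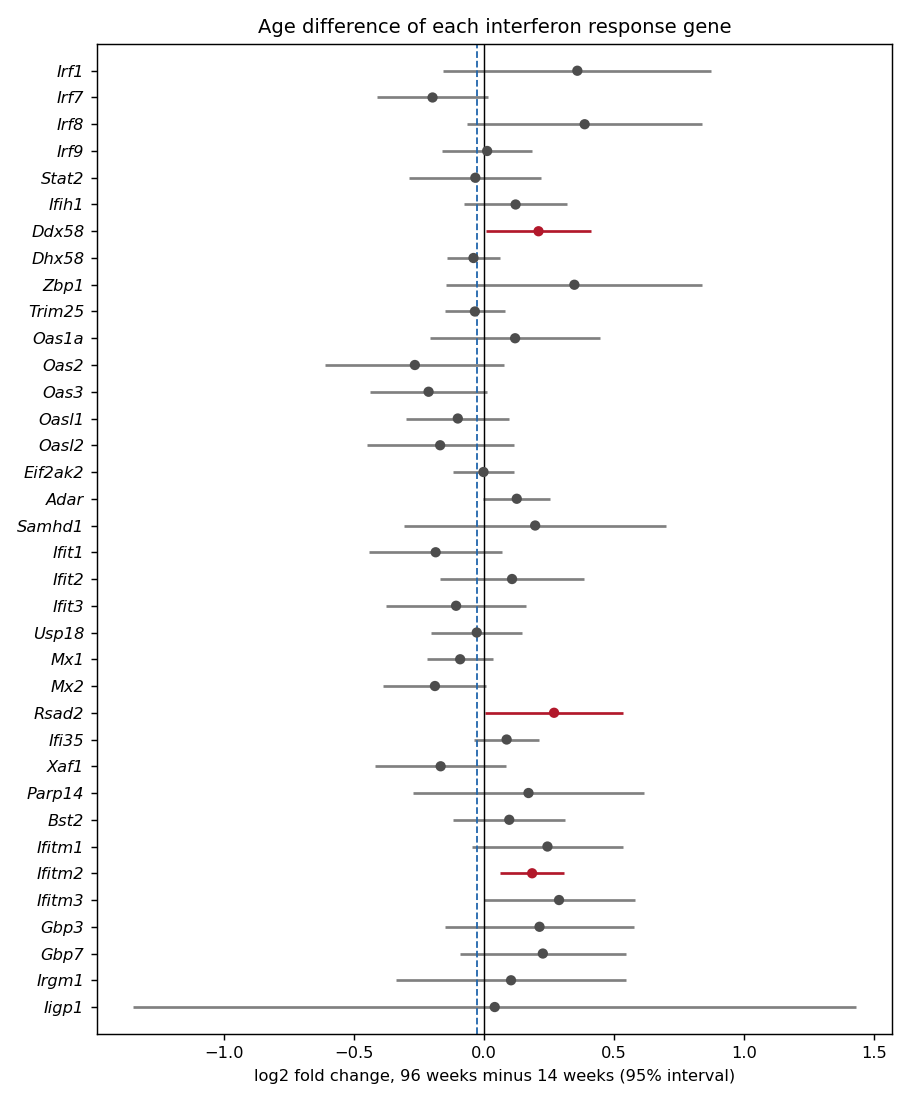
Log2 fold change of the 36 measured members, 96 weeks minus 14 weeks, with 95% intervals from limma (4 and 5 arrays). Members are listed by role, the solid line marks 0, the dashed line the median of all genes (-0.03), and red marks an unadjusted p under 0.05. Iigp1 has the widest interval, from -1.35 to 1.43.

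The 5 transcription factors gave 3 log2 fold changes above 0, of which Irf9 turned under other scalings, and 2 below it. Irf1, a factor of the interferon-gamma response, had log2 levels of 6.73, 7.41, 6.98 and 6.88 at 14 weeks and of 7.58, 6.92, 7.26, 8.08 and 6.96 at 96 weeks. Irf8, a factor of myeloid cells, had 6.03, 6.58, 6.33 and 6.63 at 14 weeks and 6.66, 6.35, 6.91, 7.42 and 6.54 at 96 weeks. In both, replicate 4 at 96 weeks was the highest of the 9 kidneys, and the other old kidneys lay among or close above the young ones. The log2 fold changes were 0.36 for Irf1 (SE 0.23, adjusted p = 0.32 from limma) and 0.39 for Irf8 (SE 0.20, adjusted p = 0.23). A dimmer probe set of Irf1 had a difference of -0.06, again with its highest value in replicate 4. Irf7, which amplifies the production of type I interferon, ranged from 5.65 to 5.93 at 14 weeks and from 5.33 to 5.72 at 96 weeks (log2 fold change -0.20, SE 0.10, adjusted p = 0.20 from limma). Irf9 (0.01, SE 0.08) and Stat2 (-0.03, SE 0.11), which belong to the type I complex, had differences smaller than their standard errors.

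Of the sensors, Ddx58, the gene of the RNA helicase RIG-I, was at 8.18, 8.12, 7.86 and 8.18 at 14 weeks and at 8.30, 8.17, 8.45, 8.43 and 8.12 at 96 weeks. The groups overlapped, and the lowest value was replicate 3 at 14 weeks (log2 fold change 0.21, SE 0.09, unadjusted p = 0.044, adjusted p = 0.16 from limma). Ifih1, the gene of the related helicase MDA5, had a log2 fold change of 0.12 (SE 0.09), with 8.03 and 8.13 in replicates 3 and 4 at 96 weeks and at most 7.87 in the other 7 kidneys. Zbp1, a sensor of nucleic acid in the Z form that triggers cell death, ranged from 5.52 to 6.15 at 14 weeks and from 5.75 to 6.96 at 96 weeks (0.35, SE 0.22). Dhx58, the gene of LGP2, a regulator of the other helicases, stayed between 4.88 and 5.03 on all 9 arrays (-0.04, SE 0.05). Trim25, a ubiquitin ligase that activates RIG-I, stayed between 8.34 and 8.54 (-0.03, SE 0.05).

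The oligoadenylate synthetases, which switch on the RNA-degrading enzyme RNase L, and their relatives gave 1 value above 0 and 4 below it. Oas2 was at 6.02, 6.45, 5.96 and 6.02 at 14 weeks and at 5.88, 5.32, 6.04, 5.96 and 6.02 at 96 weeks. Its log2 fold change of -0.27 (SE 0.16, adjusted p = 0.27 from limma) came with 1 high young kidney, replicate 2, and 1 low old kidney, also numbered 2, while the other 7 lay between 5.88 and 6.04. Oas3 (-0.21, SE 0.10), Oasl2 (-0.17, SE 0.13) and Oasl1 (-0.10, SE 0.09) were below 0 and Oas1a (0.12, SE 0.15) was above it. Eif2ak2, the gene of the kinase PKR that halts translation, had a difference of less than 0.01 in size (SE 0.05, 95% interval -0.12 to 0.12). Adar, which edits adenosine to inosine in double-stranded RNA, had a log2 fold change of 0.13 (SE 0.06, adjusted p = 0.18 from limma). Samhd1, which breaks down deoxynucleotides, was at 8.77, 8.99, 8.91 and 8.83 at 14 weeks and at 9.15, 8.62, 9.12, 9.88 and 8.58 at 96 weeks. The old kidneys thus lay on both sides of the young ones (0.20, SE 0.23).

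The other effectors gave 4 log2 fold changes above 0 and 6 below. Rsad2, the gene of the antiviral enzyme viperin, was at 7.50, 8.05, 7.77 and 7.97 at 14 weeks and at 7.96, 8.20, 7.89, 8.11 and 8.29 at 96 weeks. Replicates 2, 4 and 5 at 96 weeks lay above all young kidneys and the lowest value was replicate 1 at 14 weeks (log2 fold change 0.27, SE 0.12, unadjusted p = 0.046, adjusted p = 0.17 from limma). Its level in replicate 4 was not the highest of the old kidneys. The Ifit genes encode proteins that bind viral RNA. Ifit1 was at 6.69, 7.03, 6.67 and 6.67 at 14 weeks and at 6.67, 6.35, 6.66, 6.83 and 6.38 at 96 weeks (-0.19, SE 0.11, adjusted p = 0.30 from limma). Its highest value was in a young kidney, replicate 2, and the same kidney had the highest Ifit3 (8.48). Ifit3 had a log2 fold change of -0.11 (SE 0.12) and Ifit2 of 0.11 (SE 0.12). Ifit3 has a near-identical copy, Ifit3b, and signal of the pair may be shared.

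Usp18, which removes Isg15 and dampens the type I receptor, had a log2 fold change of -0.03 (SE 0.08). Mx1 and Mx2, dynamin-like GTPases that trap viruses, were dim, at 3.44 to 3.77 and at 4.45 to 5.05, with log2 fold changes of -0.09 (SE 0.06) and -0.19 (SE 0.09). Many laboratory strains carry a defective Mx1. Mx1, Mx2 and Dhx58 were the 3 members below the 30th percentile of brightness over all genes. Xaf1, a partner of the apoptosis inhibitor Xiap, had a log2 fold change of -0.17 (SE 0.11), and Ifi35 one of 0.09 (SE 0.06). Parp14, a mono-ADP-ribosyltransferase, reached 7.76 in replicate 4 at 96 weeks, while the other 8 kidneys lay between 6.65 and 7.26 (0.17, SE 0.20).

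All 4 membrane proteins had log2 fold changes above 0. Ifitm2, which with its relatives keeps viruses from fusing with cell membranes, was at 9.18, 9.20, 9.14 and 9.29 at 14 weeks and at 9.25, 9.39, 9.45, 9.41 and 9.43 at 96 weeks. Every old kidney except replicate 1 lay above all young ones, and the spread was narrow in both groups (log2 fold change 0.19, SE 0.06, unadjusted p = 0.0076, adjusted p = 0.073 from limma). It was the member with the smallest p. All 3 of its probe sets had higher means at 96 weeks (0.19, 0.13 and 0.35), and in the dimmest the groups did not overlap. Ifitm3 was the brightest member and was at 10.7, 10.9, 10.7 and 10.7 at 14 weeks and at 10.8, 10.8, 11.3, 11.4 and 10.9 at 96 weeks. Replicates 3 and 4 stood above the others (0.29, SE 0.13, adjusted p = 0.18 from limma). Ifitm1 had a log2 fold change of 0.24 (SE 0.13) and Bst2, the gene of tetherin, of 0.10 (SE 0.10).

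The GTPases of the interferon-gamma response also gave 4 log2 fold changes above 0, although Iigp1 was below 0 under both other scalings. Iigp1, an immunity-related GTPase that attacks the vacuoles of parasites, was at 7.75, 8.48, 7.59 and 7.81 at 14 weeks and at 8.63, 6.64, 7.48, 10.15 and 6.84 at 96 weeks. The old kidneys held both the 2 highest and the 3 lowest values, so that the mean difference was 0.04 with an SE of 0.63. Irgm1, which controls other GTPases of this family, was at 7.81, 8.05, 7.65 and 7.76 at 14 weeks and at 7.88, 7.59, 7.81, 8.69 and 7.65 at 96 weeks (0.10, SE 0.20). Gbp3 and Gbp7, guanylate-binding proteins, had log2 fold changes of 0.21 (SE 0.16) and 0.23 (SE 0.14), with 9.16 and 8.37 in replicate 4. In all 4 genes replicate 4 at 96 weeks was the highest kidney.

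**Figure D2:**
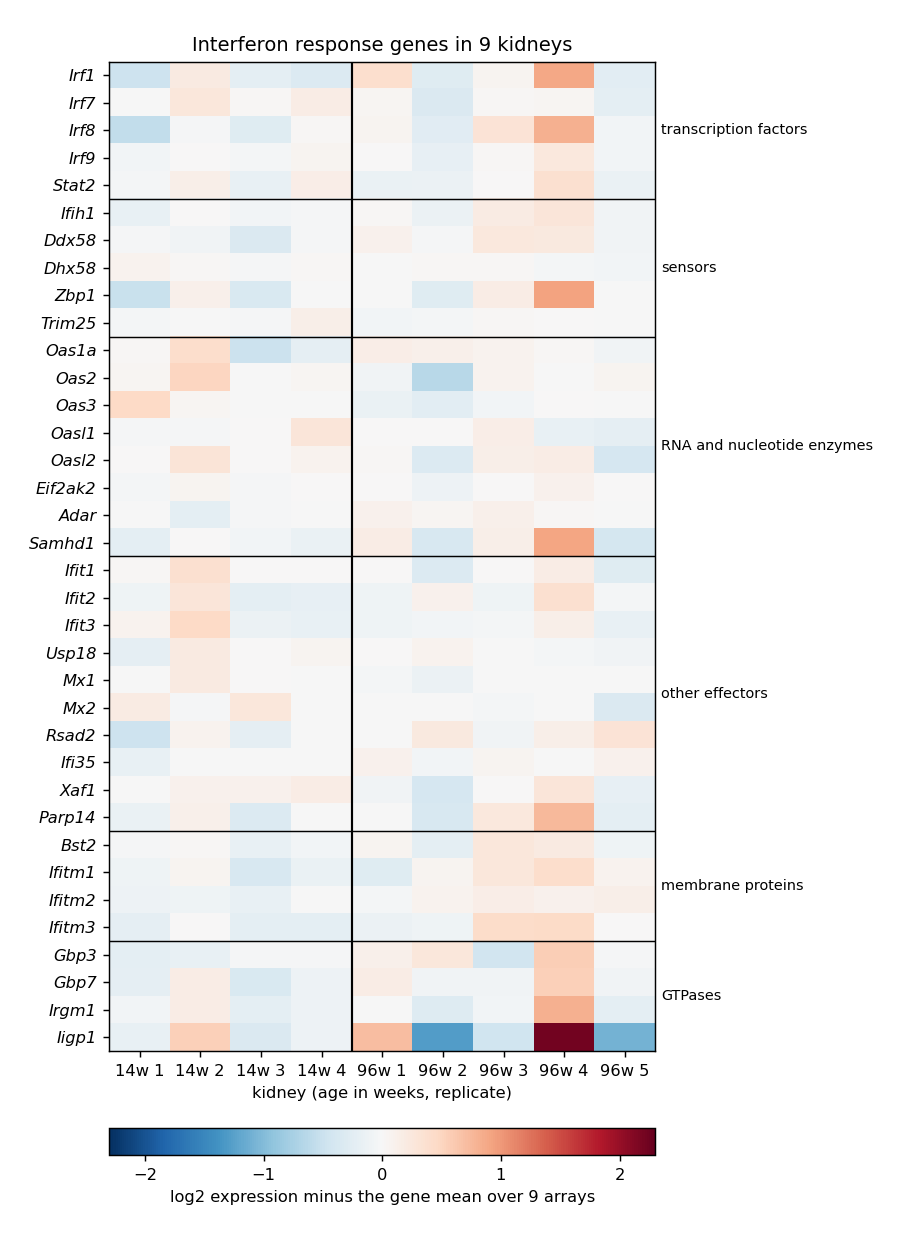
Log2 expression of the 36 measured members (rows, by role) in 9 kidneys (columns), each minus the mean of the gene over the 9 arrays. The vertical line separates 14 weeks from 96 weeks. Replicate 4 at 96 weeks is the highest kidney in 17 members, and Iigp1 spans the widest range.

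Replicate 4 at 96 weeks was the highest of the 9 kidneys in 17 of 36 members (47.2%), and it was the highest in 12.8% of all genes. It was the lowest in 0 members and in 17.6% of all genes. It was the highest in 4 of 5 factors, 2 of 5 sensors, 2 of 8 RNA and nucleotide enzymes, 3 of 10 other effectors, 2 of 4 membrane proteins and 4 of 4 GTPases. Replicate 2 at 96 weeks was the lowest in 12 members (33.3%), and in 12.4% of all genes. Among young kidneys replicate 2 was the highest in 8 members (22.2%, against 15.1% of all genes), of which 4 were other effectors and 3 RNA and nucleotide enzymes. Averaged over the members, the deviation of each kidney from the gene means was -0.10, 0.12, -0.12 and -0.02 at 14 weeks and 0.03, -0.16, 0.05, 0.33 and -0.12 at 96 weeks. The standard deviation was larger at 96 weeks in 23 of 36 members (63.9%), as in 58.9% of all genes, and in each factor, membrane protein and GTPase but in only 3 of 10 other effectors.

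Without replicate 4 at 96 weeks the median log2 fold change of the members was -0.01 and 4 members passed an unadjusted p under 0.05 from limma (11.1%, against 26.6% of all genes in the same fit). Ifitm2 was higher, and Irf7, Ifit1 and Xaf1 were lower. Without replicates 3 and 4 the median was -0.04, with 3 members higher and 4 lower (19.4% of the members, against 26.5% of all genes in the same fit). The log2 fold change of Iigp1 was then -0.51 without replicate 4 and -0.53 without both, and that of Irgm1 was -0.09 and -0.11.

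The order of the old kidneys in Iigp1, replicate 4, then 1, 3, 5 and 2, was shared by Irf1, Eif2ak2, Ifit1 and Irgm1 among the 35 other measured members and by 1.43% of all genes. Of the 11 measured markers of T cells and NK cells, 5 had this order, Cd3d, Cd3e, Cd3g, Cd8a and Cd2, as did 2 of 7 B and plasma cell markers, Cd79a and Ms4a1, and 6 of 64 other pathway genes. In Eif2ak2 replicates 3 and 5 held the same value. No marker of the other lists had this order. Another order, replicate 4, then 3, 1, 5 and 2, was held by the members Irf8, Irf9, Ifih1, Xaf1 and Parp14. Of the 12 macrophage markers Lyz2, C1qb, C1qc and Fcer1g also had that second order. So did Cd74 and H2-Aa of the 7 dendritic cell markers and Csf3r of the 4 neutrophil markers. Among the 64 other pathway genes it was held by Pias1, Ikbke, Rtp4, Trim30a, Cxcl10, Cxcl11 and Slfn2. The share of all genes with the second order was not counted. The mean level of the 11 T and NK cell markers lay between 5.22 and 5.25 at 14 weeks and was 6.08, 5.18, 5.60, 6.80 and 5.27 at 96 weeks. The mean of the 4 GTPases was 7.89, 8.24, 7.82 and 7.96 at 14 weeks and 8.31, 7.71, 7.80, 9.09 and 7.70 at 96 weeks. Replicates 4 and 1 were thus the highest old kidneys for both, while the high young kidney of the GTPases, replicate 2, was at 5.23 for the T and NK markers. At 96 weeks 10 of the 11 T and NK markers were above their 14 week mean, 3 at an unadjusted p under 0.05 from limma (27.3%) and 0 after adjustment. Of all genes 13.3% were higher before adjustment and 4.31% after it. Replicate 4 was the highest kidney in 10 of the 11 markers. The part of T and NK cells in the interferon values was not tested.

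**Figure D3:**
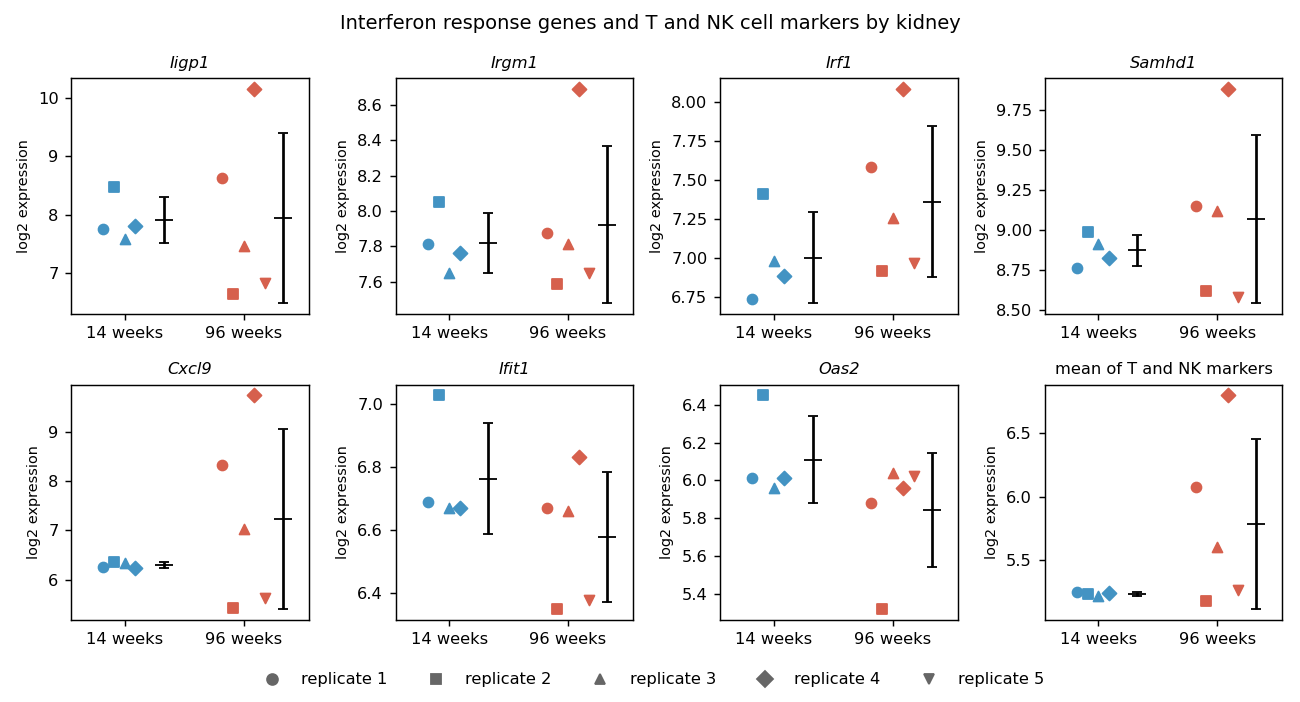
Log2 expression of 7 interferon genes and the mean of 11 T and NK cell markers in each kidney, with the mean and 1 SD of each age as bars. Marker shapes are replicate numbers, which do not link the ages. Iigp1, Irgm1, Irf1, Samhd1, Cxcl9 and the marker mean peak in replicate 4 at 96 weeks, and Ifit1 and Oas2 peak in replicate 2 at 14 weeks.

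Markers of other immune cells also differed among the kidneys. All 12 macrophage markers had log2 fold changes above 0, and Csf1r, Lyz2 and Tyrobp passed an adjusted p under 0.05 from limma (25%, beside 4.31% of all genes higher). The mean level of the macrophage markers was between 6.88 and 6.99 at 14 weeks and was 7.55, 7.23, 8.29, 8.31 and 7.38 at 96 weeks, with replicates 3 and 4 highest, as in Ifitm3 and Ifih1. For B and plasma cells 7 of 7 measured markers were above 0 and 2 passed (28.6%), with mean levels between 5.44 and 5.54 at 14 weeks and between 6.72 and 8.24 at 96 weeks. Of 7 dendritic cell markers 5 were above 0 and 1 passed (14.3%). Their mean level ranged from 6.67 to 6.78 at 14 weeks and from 6.78 to 7.59 at 96 weeks. None of the 4 neutrophil, 6 endothelial or 3 adipocyte markers passed. The mean level of the 9 kidney epithelium markers lay between 10.28 and 10.38 at 14 weeks. At 96 weeks it was 10.45, 10.58, 10.24, 10.2 and 10.41, highest in replicate 2 and lowest in replicate 4. The 36 members had mean levels between 7.07 and 7.31 at 14 weeks and between 7.04 and 7.53 at 96 weeks. The part of macrophages, dendritic cells and B cells in these values was not tested.

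Other genes of the pathway were read from 5 lists with 64 measured members. By limma 6 rose (9.38%) and 1 fell (1.56%) with an adjusted p under 0.05, beside 4.31% and 2.4% of all genes. The 5 measured interferons did not pass. Their log2 fold changes lay between -0.05 and 0.06, with Ifnb1, Ifna4 and Ifne between 3.67 and 4.38 on all arrays, Ifnk between 6.28 and 6.79, and Ifng between 5.53 and 6.36. Ifng was highest in replicate 4 at 96 weeks.

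Of the 6 receptor chains, 5 had log2 fold changes above 0 and 1 passed the test. The exception, Ifnlr1, was above 0 with cyclic loess. Ifngr2, a chain of the interferon-gamma receptor, was at 7.87, 7.90, 7.92 and 8.12 at 14 weeks and at 8.44, 8.29, 8.71, 8.52 and 8.27 at 96 weeks. The ages did not overlap, and Ifngr2 rose by 0.50 on the log2 scale (SE 0.09, adjusted p = 0.017 from limma). The chains of the type I receptor were at 7.40, 7.35, 7.24 and 7.27 and then at 7.44, 7.42, 7.62, 7.52 and 7.51 for Ifnar1, whose groups did not overlap (log2 fold change 0.19, SE 0.06, adjusted p = 0.079 from limma), and had a log2 fold change of 0.23 for Ifnar2 (SE 0.08, adjusted p = 0.090). Ifngr1 (0.22, SE 0.12) and Il10rb (0.28, SE 0.09), a shared chain of the lambda interferon receptor, did not pass, and Ifnlr1, its specific chain, was at -0.05 (SE 0.06). Stat3, a factor used by many cytokines, rose by 0.38 (SE 0.10, adjusted p = 0.045 from limma), with levels of 8.07 to 8.33 at 14 weeks and of 8.38 to 8.79 at 96 weeks. In all 2 of 13 measured receptor, kinase and factor genes rose (15.4%, beside 4.31% of all genes), and none of the 4 negative regulators passed with or without adjustment.

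Of 14 measured sensing adaptors and nucleases 2 rose (14.3%, beside 4.31% of all genes). Myd88, the adaptor of most Toll-like receptors, was at 6.60, 6.54, 6.46 and 6.68 at 14 weeks and at 7.24, 7.41, 7.28, 7.47 and 7.23 at 96 weeks. It rose by 0.76 (SE 0.07, adjusted p = 0.0011 from limma), and the gap between the ages was wider than either group. Rnaseh2c, a subunit of the enzyme that removes ribonucleotides from DNA, lay between 7.60 and 7.64 at 14 weeks and between 7.85 and 8.07 at 96 weeks, with no overlap, a rise of 0.32 (SE 0.05, adjusted p = 0.010 from limma). The other subunits were at 0.06 (Rnaseh2a, SE 0.06) and -0.01 (Rnaseh2b, SE 0.06). Sting1, the adaptor of DNA sensing, was at 6.20, 6.53, 6.30 and 6.29 at 14 weeks and at 7.44, 6.81, 7.63, 8.35 and 6.36 at 96 weeks. Only replicate 5 fell within the young range (log2 fold change 0.99, SE 0.33, adjusted p = 0.091 from limma).

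Among 28 measured further targets 2 rose (7.14%) and 1 fell (3.57%), near the 4.31% and 2.4% of all genes. Ifi27, a mitochondrial protein, rose by 0.31 (SE 0.07, adjusted p = 0.038 from limma), and Tor3a, an ATPase of the endoplasmic reticulum, by 0.29 (SE 0.07, adjusted p = 0.039). In Ifi27 replicate 5 at 96 weeks (9.08) lay just below the highest young kidney (9.09). Nlrc5, an activator of MHC class I genes, fell by 0.34 (SE 0.08, adjusted p = 0.031 from limma), but only 11 of its 19 probe sets were lower at 96 weeks and 8 were higher, and the mean of all of them gave -0.07 (adjusted p = 0.64 from limma, with a range of 0.022 to 0.64 over all alternatives). The chemokine genes Cxcl9 and Ccl5 had wide spreads. Cxcl9, a target of interferon-gamma, was at 6.25, 6.37, 6.34 and 6.24 at 14 weeks and at 8.33, 5.43, 7.03, 9.74 and 5.62 at 96 weeks, in the same order of old kidneys as Iigp1 (log2 fold change 0.93, SE 0.77, adjusted p = 0.43 from limma). Ccl5, which attracts T cells, was between 6.81 and 7.04 at 14 weeks and at 9.70, 6.62, 8.75, 10.42 and 6.78 at 96 weeks (1.56, SE 0.72, adjusted p = 0.18 from limma). Cxcl10 had a log2 fold change of 1.24 (SE 0.43, adjusted p = 0.10). These 3 chemokine genes, Sting1, Rnaseh2a and Rnaseh2b were named after their values were seen. Replicate 4 was the highest kidney in 21 of the 28 further targets (75.0%).

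**Figure D4:**
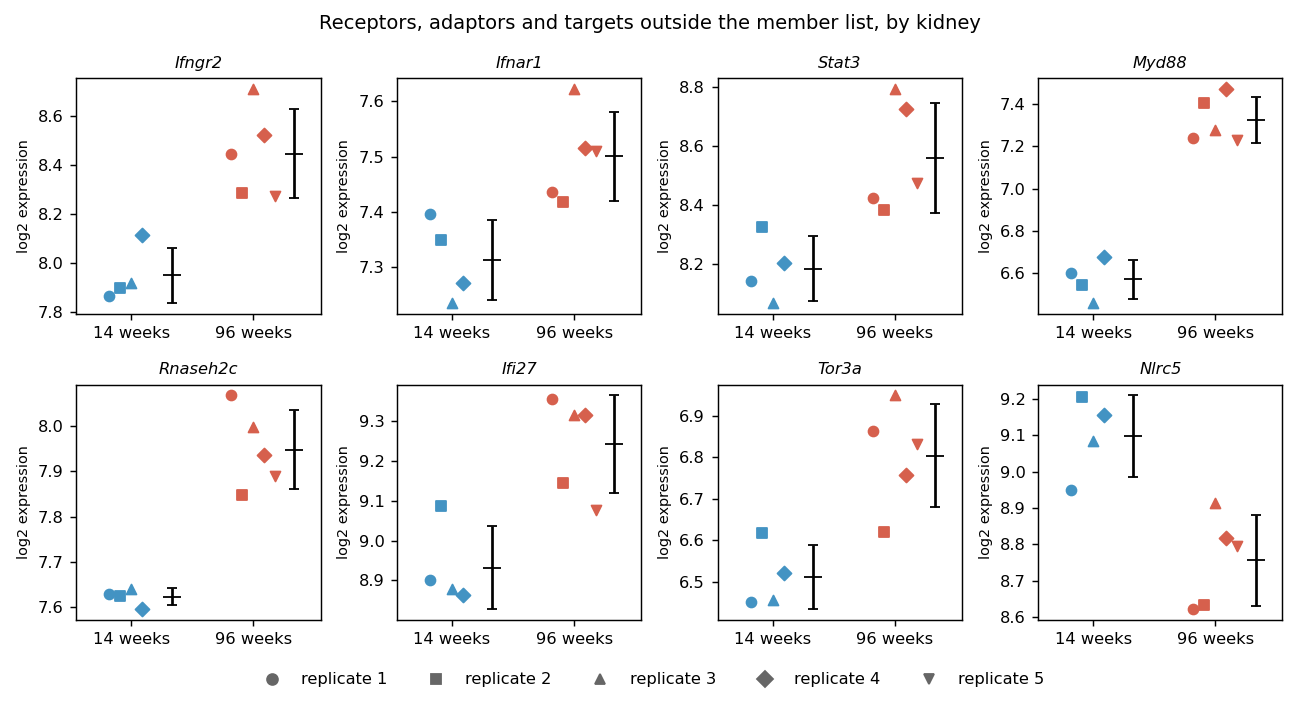
Log2 expression of 8 pathway genes outside the 41 members in each kidney, with the mean and 1 SD of each age as bars. Marker shapes are replicate numbers, which do not link the ages. Myd88, Rnaseh2c, Ifngr2, Ifnar1, Stat3 and Tor3a show no overlap and are higher at 96 weeks, Ifi27 overlaps by 1 kidney, and Nlrc5 is lower.

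With each of the 9 arrays left out in turn, the log2 fold changes of the called pathway genes stayed close to their values, while some adjusted p-values crossed 0.05. Myd88 (0.72 to 0.79), Rnaseh2c (0.29 to 0.35) and Ifngr2 (0.43 to 0.55) passed every time. Stat3 (0.32 to 0.42) passed only without replicate 2 at 96 weeks, and Ifi27 (0.28 to 0.36) only without replicate 2 at 14 weeks or replicate 5 at 96 weeks. Tor3a (0.26 to 0.34) passed only without the replicate numbered 2 of either age, and Nlrc5 (-0.39 to -0.31) only without replicate 1 at 14 weeks or replicate 3 or 4 at 96 weeks. The number passing was between 3 and 6, in fits where 2.65% to 5.69% of all genes passed. It was 3 without replicate 3 or 4 at 14 weeks, and 4 without replicate 1 at 14 weeks or replicate 1 or 3 at 96 weeks. The other scalings also moved genes across the threshold. With repeated quantile normalization Ifngr2 (adjusted p = 0.051 from limma), Stat3 (0.13) and Ifi27 (0.10) did not pass, and with cyclic loess Stat3 (0.11) and Ifi27 (0.096) did not. Among the genes that did not pass, the lowest adjusted p under any alternative was 0.033 for Il10rb, 0.039 for Sting1, 0.049 for Cxcl10 and 0.049 for Ifnar2.

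Members with ISRE letters in the promoter had a median log2 fold change of 0.12 (15 members), and those with GAS letters one of 0.13 (11 members). With both, the median was 0.12 (5 members), and with neither it was -0.10 (7 members). The level of replicate 4 at 96 weeks was compared with the mean of the other 4 old kidneys. The median excess was 0.23 in members with ISRE letters, 0.39 with GAS letters, 0.21 with both and 0.29 with neither. Of the sequences shown above, the excess was 0.90 for Irf1 and 0.81 for Irf8 with GAS letters alone. For Gbp7, with both, it was 0.56. With ISRE letters alone it was 0.95 for Irgm1, 0.32 for Ifit1, 0.23 for Ifit3 and 0.03 for Rsad2. Among members not shown, those with GAS letters alone had 1.01 (Samhd1), 0.41 (Ifit2), -0.03 (Adar) and -0.06 (Ifi35). Those with ISRE letters alone ranged from 0.02 (Ifitm2) to 0.59 (Gbp3). The groups of promoters overlap and are few, and these medians are a description.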

How the data were processed

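Total RNA of 9 whole kidneys, 4 at 14 weeks and 5 at 96 weeks, was hybridised to Affymetrix Mouse Gene ST arrays. The methods name 5 mice at each age. Per the labels, the authors ran RMA with Affymetrix Power Tools 1.12.0, which with quantile normalization gave the deposited log2 values of 35557 probe sets. No source used here gave a genome build or the signal over background, so a dim gene may be an absent one. Precision is limited by the number of arrays.

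Probe sets with 1 gene symbol in the annotation (21789, against 1621 with several and 12147 with none) gave 19938 genes, and the brightest stood for each of the 999 genes with more than 1. Sting1 and Cgas were listed under older symbols. All 9 arrays entered 1 two-sided limma fit (lmFit and eBayes, limma 3.58.1, R 4.3.3) of age, with Benjamini-Hochberg adjustment over all genes and a threshold of 0.05. No filter was used. The methods' threshold, 1.5-fold with an unadjusted p under 0.05, and their t-test were also applied. The script was tested on simulated data. Tables and promoter matches were made with Python 3.11.15 and pandas 2.3.3.

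The members and lists were chosen with earlier results of these data known. All members were named, and of the other lists the genes that passed, the receptors and the ligands. Alternatives were another test, weighted arrays, a filter on dim genes, other scalings, the mean of probe sets, a block for the replicate number, and fits with arrays left out. The p-values set the difference between the ages against the spread between these kidneys. Correlations between arrays ran from 0.982 to 0.997, with 0 identical pairs. In 16 of the 36 members at least 2 arrays held exactly the same value, as in 57.3% of all genes.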

Additional observations from a re-analysis of the deposited data

Results flagged for a closer look

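In 12 of 72 groups (36 members at 2 ages) the highest or lowest kidney lay outside Dixon's 95% limit for the gap to its nearest neighbour (16.7%, against 14.1% of the groups of all genes). For values without ties chance gives about 1 in 20, and 10 of the 12 lay in members with a value shared by arrays of any age. Within the flagged age group itself, values were shared only in Oas2, Ifit1 and Ifi35 at 14 weeks and in Mx2 at 96 weeks. Of the 12 flagged groups, 9 were at 14 weeks (25% of the members, against 13.57% of all genes). The other 3 were at 96 weeks (8.33%, against 14.55%). Replicate 2 at 14 weeks was set apart in 5 genes. It was high in Oas2 (6.45, others 5.96 to 6.02), Ifit1 (7.03, others 6.67 to 6.69), Mx1 (3.77, others 3.56 to 3.59) and Ifitm3 (10.9, others at 10.7), and low in Adar (6.60, others 6.79 to 6.82). Replicate 1 at 14 weeks was high in Oas3 (6.19, others 5.71 to 5.77) and low in Ifi35 (6.17, others 6.32 to 6.33). Replicate 3 at 14 weeks was low in Ddx58 (7.86, others 8.12 to 8.18) and replicate 4 high in Oasl1 (6.53, others 6.22 to 6.26). At 96 weeks replicate 4 was high in Irgm1 (8.69, others 7.59 to 7.88), replicate 2 low in Oas2 (5.32, others 5.88 to 6.04) and replicate 5 low in Mx2 (4.45, others 4.75 to 4.77).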

How the results depend on the processing

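The members' count at an adjusted p under 0.05 from limma stayed at 0 under the methods' t-test, the filter on dim genes (33 members tested), cyclic loess, repeated quantile normalization, the mean of probe sets and without replicates 3 and 4 at 96 weeks. It was 1 with array weights and 0 to 1 when 1 array was left out, Ifitm2 each time (0.20 with an adjusted p of 0.048, and 0.22 with 0.046 without replicate 1 at 96 weeks). The range of its adjusted p over all alternatives was 0.046 to 0.30. At an unadjusted p under 0.05 the 3 members (all genes 28.5%) became 5 with array weights (28.7%), 1 with cyclic loess (23.3%), 0 with repeated quantile normalization (24.0%), 7 without replicates 3 and 4 at 96 weeks (26.5%), and 2 to 6 without 1 array, where 22.5% to 27.6% of all genes passed (6 without the fourth array at 14 weeks, and 5 without the second at 14 weeks or the first at 96 weeks). The count of members whose groups do not overlap became 1 with repeated quantile normalization, 1 without both old kidneys and 0 to 2 without 1 array (2 without replicate 1 or 2 at 14 weeks). The share of all genes without overlap, 13.3% with all arrays, was not counted in these settings. The 7 other pathway genes (all genes 6.72%) became 8 with array weights (7.98%), 6 with the mean of probe sets (6.78%) and 5 with cyclic loess (4.72%). They became 5 without replicates 3 and 4 at 96 weeks (5.14%) and 4 with repeated quantile normalization (4.96%). With the methods' t-test they became 2 (1.84%), and without 1 array 3 to 6 (2.65% to 5.69%). The median of the members ran from -0.01 to 0.13 without 1 array, with -0.01 without replicate 4 at 96 weeks, and was -0.04 without replicates 3 and 4.

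No pairing by replicate number was seen, since same-numbered kidneys had correlations of deviations of 0.08, 0.02, -0.04 and 0.01. With the replicate block, which leaves replicate 5 at 96 weeks without a partner, 0 members passed after adjustment (all genes 1.85%) and 4 before it (all genes 25.2%). After adjustment 2 other pathway genes passed, Ifngr2 and Myd88. The replicate block gave log2 fold changes of opposite sign for Stat2 (0.0030), Ifnb1 (0.011) and Ifna4 (0.022).

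Direction turned in 13 of 36 members under some alternative. With array weights these were Eif2ak2 (0.0037) and Iigp1 (-0.18), and Ifnk (0.032) outside the members. With cyclic loess they were Irf9 (-0.026), Dhx58 (0.048) and Iigp1 (-0.019), and Ifnb1 (0.075), Ifna4 (0.039), Ifnk (0.0090), Ifng (0.023) and Ifnlr1 (0.0016). With repeated quantile normalization they were Irf9 (-0.056), Dhx58 (0.050) and Iigp1 (-0.021), and Ifnb1 (0.081), Ifna4 (0.056) and Ifng (0.012). Without replicates 3 and 4 at 96 weeks they were Irf9 (-0.074), Samhd1 (-0.090), Parp14 (-0.11), Bst2 (-0.030), Irgm1 (-0.11) and Iigp1 (-0.53), and Ifne (-0.015) and Ifnk (0.14). Leaving out 1 array turned 10 members, with ranges of -0.046 to 0.060 for Irf9, -0.13 to 0.012 for Stat2, -0.054 to 0.0050 for Trim25, -0.022 to 0.28 for Oas1a, -0.024 to 0.027 for Eif2ak2, -0.0056 to 0.32 for Samhd1, -0.18 to 0.026 for Ifit3, -0.10 to 0.038 for Usp18, -0.086 to 0.19 for Irgm1 and -0.51 to 0.37 for Iigp1. Among the interferons the ranges were -0.052 to 0.053 for Ifnb1, -0.096 to 0.022 for Ifna4, -0.067 to 0.061 for Ifnk and -0.18 to 0.033 for Ifng. The cause of these changes was not tested. Of the members, 23 kept their direction throughout.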
